A study of Mus musculus with 18 samples.

Results

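This comparison set late cultures in which Tcf3-deficient mouse cells were being reprogrammed to induced pluripotent stem cells (iPSC) against picked iPSC clones made with the same labelled factors from the same labelled Tcf3 genotype. Members were chosen by sample title: the 3 arrays of OCK Tcf3 ko cultures on days 19, 22 and 26, and the 2 arrays of OCK iPS Tcf3 ko clones, 5 of the 18 arrays of the series. All 5 samples carried the Tcf3 knockout (ko), and all had received the factor set labelled OCK, which stands for Oct4, c-Myc and Klf4 without Sox2. The late cultures are mixed populations that were harvested whole, whereas a clone grows from a single picked colony. The remaining arrays hold OCK cultures without the knockout (wt) and on earlier days, 3 iPSC clones made with OSK (Oct4, Sox2 and Klf4; 1 wt and 2 ko), and an incompletely reprogrammed clone treated with siRNA. The design text calls the 2 OCK ko clones different cell lines, and nothing in the labels says whether the 3 days came from 1 culture or from separate ones. The p-values therefore measure the spread between these arrays, in which day and replicate cannot be told apart. The sources used here do not name the starting cell, its sex, feeder cells, the passage of the clones or a scan batch, nor do they say whether cultures and clones came from the same starting cells.

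Reprogramming of fibroblasts begins with loss of the fibroblast programme and gain of epithelial junctions, and only a minority of cells later switch on the self-sustaining pluripotency network around Oct4, Sox2 and Nanog. Naive pluripotent cells of the mouse add a further layer of regulators, such as Esrrb, Tfcp2l1 and Zfp42, and lose DNA methylation at germline promoters. Tcf3, whose gene is Tcf7l1, is the most abundant Tcf/Lef factor of embryonic stem cells and represses many pluripotency genes until Wnt signalling relieves it.

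Levels are the deposited log2 values, with 1 probe set per gene and a floor at 5.64, the log2 of 50, below which nothing was resolved. Differences are late cultures minus clones on the log2 scale, with ± giving the standard error of the difference (3 cultures, 2 clones), and a gene passed when its limma p, adjusted by Benjamini-Hochberg, was below 0.05. The limma fit kept values at the floor from setting the common spread, and gave genes with such values at least that spread. Limma's plain moderated test, named where it ends a call, is the same fit without these steps. It also tests and adjusts over all 17903 genes, including those at the floor on all 5 arrays. A fold against a group with every array at the floor is a lower bound, written as "at least". Where some arrays of a group were at the floor, the floor value entered the mean, so the fold depends on the floor. Genes at the floor on all 5 arrays (4304 of 17903) were not tested, and a gene at the floor throughout 1 group was tested only through the other, so its direction was fixed by that filter (774 genes with all cultures at the floor, 927 with both clones). The targeted gene Tcf7l1 read 8.61, 8.10 and 8.44 on days 19, 22 and 26 and 9.45 and 9.56 in clones 1 and 2. All 5 values lay well above the floor, with the cultures below both clones (log2 difference -1.12 ± 0.19, 2.17-fold lower, limma adjusted p = 0.00386). The second Tcf7l1 probe set gave a difference of -1.31. In the wt OSK clone the first read 10.68, and in the late wt cultures 9.07, 9.06 and 9.17. The sources used here do not say which part of the gene was deleted or whether a probe set lies in it, so these values do not check the knockout labels.

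Defining markers separated the groups. Of 8 fibroblast markers all 8 were above the floor in every late culture, with summed linear signals between 70708 and 97910, against 4 and 6 markers and sums of 910 and 3020 in clones 1 and 2. The 7 pluripotency markers were Nanog, Pou5f1, Zfp42, Esrrb, Dppa5a, Fbxo15 and Tdgf1. They summed to 66112 and 63458 in the clones and to 6191, 11611 and 15308 in the cultures of days 19, 22 and 26. These sums include the supplied factor Pou5f1, at log2 levels of 12.17, 12.69 and 12.46 in the cultures and 11.90 and 12.35 in the clones. Whether its probe set reads the introduced gene is not known. In whole cultures, fewer cells of a type and less RNA per cell cannot be told apart, and this holds for every difference below. The 3 Y-linked genes Eif2s3y, Kdm5d and Uty were above the floor in all 3 cultures, Eif2s3y at 9.19, 9.68 and 9.67, and at the floor in both OCK ko clones and in all 3 OSK clones. A difference in the origin of cultures and clones cannot be told apart from the comparison. On the X chromosome 207 of 447 genes were lower in the cultures (46.3%) and 68 were higher (15.2%), against 23.3% and 21.3% on the autosomes, and the median X-linked difference was -0.50. Against the 2 OSK ko clones the median X-linked difference of the same cultures was 0.0, and X-linked genes had a median 0.54 higher in the OCK ko clones than in the OSK ko clones. The part of the sex chromosomes in single X-linked results was not tested. With the p-values of the same fit adjusted over autosomal genes only, 5818 genes passed.

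The late cultures and the clones differed over a large part of the measured genome. Of 13599 genes tested, 2868 were higher in the late cultures (21.1%) and 3259 were lower (24.0%), together 6127 or 45.1%. Counts of list members below are to be read against these shares. By at least 2-fold, 1892 genes were higher (13.9%) and 1524 lower (11.2%), and over all genes tested the median difference was -0.08. Values of the 3 cultures and the 2 clones did not overlap for 3960 genes that were higher (29.1%) and 5286 that were lower (38.9%). Among 10966 genes above the floor on all 5 arrays, the 95% interval of the difference lay within 1 log2 unit of 0 for 5806 (52.9%). The count of passing genes fell to 4021 with clone 1 left out, 4184 with clone 2 left out and 4574 with day 26 left out.

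Across the 13599 genes, Pearson's r with the mean of the OCK ko clones was 0.681 and 0.673 for the ko cultures of days 11 and 15 and 0.774, 0.842 and 0.807 for days 19, 22 and 26. Each OCK ko clone had r = 0.981 with the other, and the OSK ko clones reached 0.981 and 0.980. These correlations are across genes, which are not independent, and describe the arrays only. Day 22 had the highest r and the fewest distant genes of the late cultures: 1791 genes were at least 2-fold above the clones and 1308 below, against 2146 and 1886 on day 19 and 2103 and 1599 on day 26. Among passing genes day 22 lay nearest to the clones for 1815 of 2868 higher ones and 1726 of 3259 lower ones, and day 26 for 482 and 745.

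**Figure D1:**
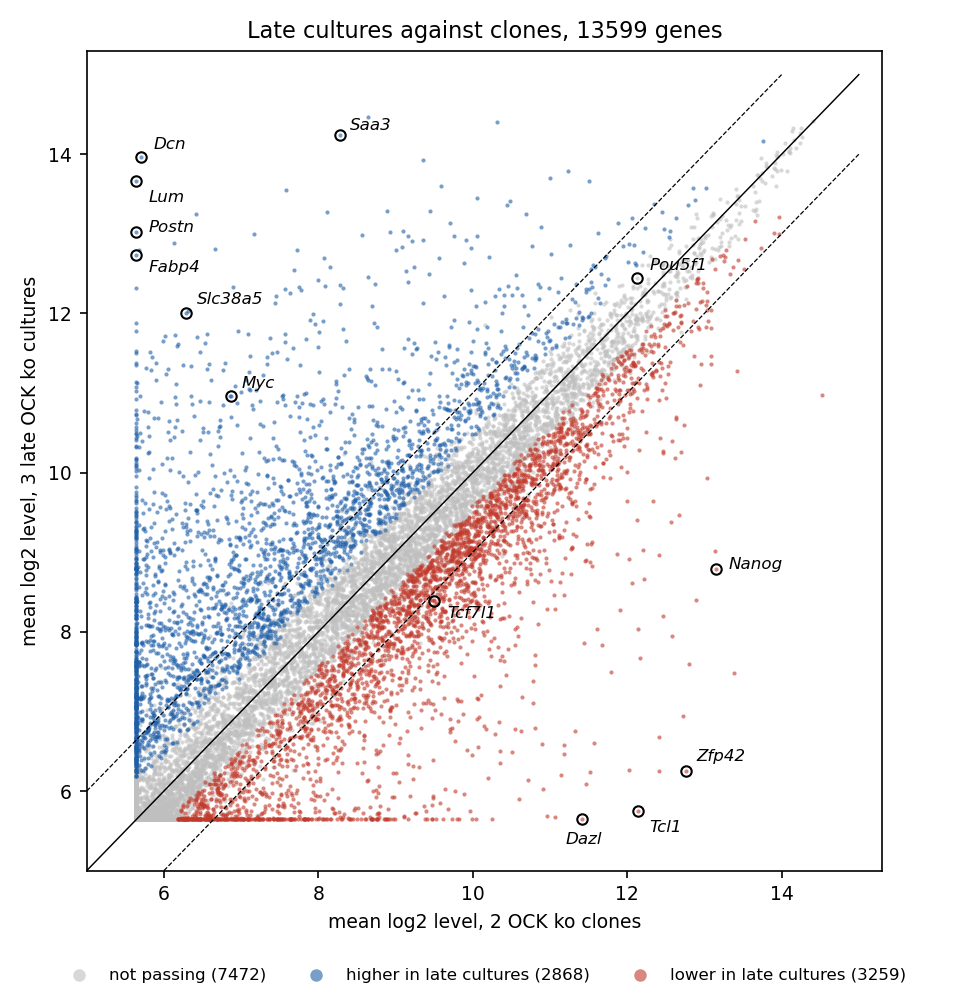
Mean log2 level of 13599 genes in the 2 OCK ko clones (x axis) against the 3 late OCK ko cultures (y axis); the solid line marks equal levels, dashed lines 2-fold, and colour the limma call (2868 higher, 3259 lower). Fibroblast genes such as Dcn and Lum stand at or near the floor on the x axis, and Zfp42, Tcl1 and Dazl near the floor on the y axis.

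Of the reprogramming factors and their partners, those not supplied in the cocktail were lower in the late cultures, while Myc was higher. Among 8 core factors tested, 5 were lower (Nanog, Sall4, Sox2, Lin28a and Utf1), 1 was higher (Myc) and the median difference was -2.53, where 24.0% and 21.1% of all genes tested were lower and higher. Nanog, the homeodomain factor that stabilises pluripotency, read 7.41, 9.15 and 9.79 on days 19, 22 and 26 and 13.18 and 13.13 in clones 1 and 2. The 3 cultures lay below both clones and were highest on day 26 (log2 difference -4.37 ± 0.63, 20.7-fold lower, limma adjusted p = 0.00213). Sox2, the Oct4 partner that OCK leaves out, read 6.71, 9.66 and 10.55 on days 19, 22 and 26 and 12.50 and 12.33 in clones 1 and 2. It was near the floor on day 19 and highest on day 26, still below both clones (log2 difference -3.44 ± 1.02, 10.9-fold lower, limma adjusted p = 0.0313). Lin28a, an RNA-binding protein that blocks let-7 maturation, read 5.64, 5.83 and 8.41 on days 19, 22 and 26 and 8.73 and 10.83 in clones 1 and 2. Day 26 lay just below clone 1, and days 19 and 22 lay far below both clones (log2 difference -3.15 ± 0.94, 8.88-fold lower, limma adjusted p = 0.0331). Sall4, a zinc finger partner of Oct4, was lower, at -3.45 ± 0.70 (limma adjusted p = 0.00768). The number of lower members was 1 with limma's plain moderated test and 3 with clone 2 left out. Under single alternatives the call ended for Sox2, Lin28a, Sall4 and Myc with limma's plain moderated test, Lin28a with day 19 left out and day 22 left out, Sox2 with clone 1 left out and Sox2 and Lin28a with clone 2 left out, the mean of probe sets and array weights.

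The 3 supplied factors did not follow that pattern. Pou5f1, which encodes Oct4, read 12.17, 12.69 and 12.46 on days 19, 22 and 26 and 11.90 and 12.35 in clones 1 and 2. The groups overlapped, and the difference of 0.31 ± 0.22 did not pass (95% interval -0.21 to 0.84, limma adjusted p = 0.284). Myc read 10.95, 11.08 and 10.86 on days 19, 22 and 26 and 5.64 and 8.09 in clones 1 and 2. All 3 cultures lay above both clones, and clone 1 was at the floor (log2 difference 4.10 ± 0.63, 17.1-fold higher, limma adjusted p = 0.00266). The 3 OSK clones read 7.88, 7.82 and 7.71 for Myc, near clone 2. Klf4 read 12.07, 12.22 and 12.04 on days 19, 22 and 26 and 11.79 and 10.94 in clones 1 and 2 with the probe set used here, a difference of 0.74 ± 0.26 (limma adjusted p = 0.0527), which did not pass. It passed in 7 of the 14 alternatives and was -0.45 with the mean of its probe sets. Its second probe set read 10.52, 9.62 and 10.30 in the cultures and 12.13 and 11.45 in the clones, a difference of -1.64 in the other direction. Mycn, a Myc relative, also had probe sets that went both ways: the brightest of its 3 probe sets read 14.29, 14.49 and 14.44 on days 19, 22 and 26 and 8.76 and 11.87 in clones 1 and 2 (log2 difference 4.09 ± 0.79, 17.1-fold higher, limma adjusted p = 0.00643), a call lost with limma's plain moderated test, and the other 2 gave differences of -3.44 and -1.97. Probe sets of 1 gene went at least 2-fold both ways in 14 of the 7906 genes with more than 1 probe set, a limit that Mycn met and Klf4 did not. The sources used here do not say whether a probe set reads the introduced factors, and no direction is drawn for Klf4 or Mycn.

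**Figure D2:**
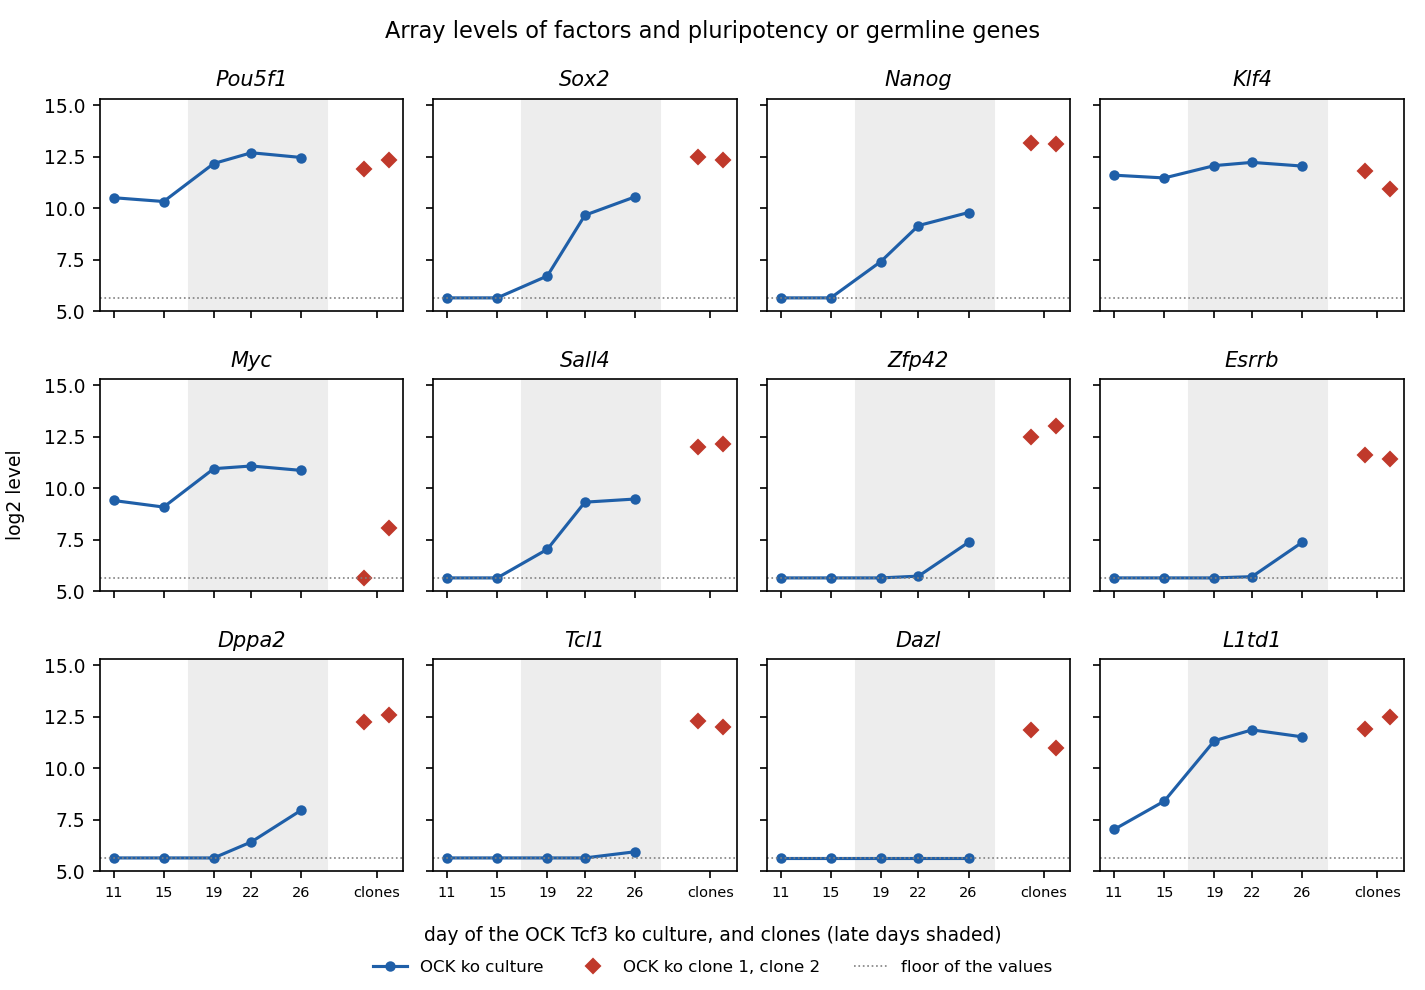
Log2 level (y axis) of 12 genes in the OCK ko cultures by day (blue, late days shaded) and in OCK ko clones 1 and 2 (red diamonds); the dotted line is the floor at 5.64. Nanog, Sox2 and Sall4 left the floor by day 19 and stayed under the clones, Zfp42, Esrrb and Tcl1 were at or near it until day 22, Dazl never left it, and Pou5f1 overlapped the clones.

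Regulators of the naive state were lower in the late cultures without exception: 12 of 12 passed as lower, with a median difference of -4.48. Zfp42, the zinc finger protein also called Rex1 and a classical marker of naive cells, read 5.64, 5.73 and 7.37 on days 19, 22 and 26 and 12.48 and 13.04 in clones 1 and 2. It was at the floor on day 19, barely above it on day 22 and still far below the clones on day 26 (log2 difference -6.51 ± 0.52, 91-fold lower, limma adjusted p = 0.000293). Tcl1, an Akt co-activator of embryonic stem cells, read 5.64, 5.64 and 5.94 on days 19, 22 and 26 and 12.29 and 12.01 in clones 1 and 2. Only day 26 was above the floor, and the interval of the difference ran from -6.83 to -5.97 (log2 difference -6.40 ± 0.18, 84.6-fold lower, limma adjusted p = 1.94e-05). Esrrb, an orphan nuclear receptor, read 5.64, 5.70 and 7.37 on days 19, 22 and 26 and 11.62 and 11.42 in clones 1 and 2. As for Zfp42, day 26 was the highest culture and was well below both clones (log2 difference -5.28 ± 0.51, 38.9-fold lower, limma adjusted p = 0.000502). Tfcp2l1, a target of LIF and Stat3 signalling, read 6.42, 7.56 and 8.79 on days 19, 22 and 26 and 12.93 and 12.68 in clones 1 and 2. It was highest on day 26 and below both clones on every day (log2 difference -5.22 ± 0.61, 37.2-fold lower, limma adjusted p = 0.001). Nr5a2, a nuclear receptor that can take the place of Oct4 in reprogramming, was lower, at -4.88 ± 0.37 (29.5-fold, limma adjusted p = 0.000242). The list's median distance from the clones was -4.88, -4.67 and -4.03 on days 19, 22 and 26. With limma's plain moderated test 10 of the 12 passed as lower.

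Genes that mark established pluripotent cells were mostly lower too: of 16 tested, 13 were lower, 0 higher, and the median difference was -3.33. Dppa2, a SAP-domain chromatin protein, read 5.64, 6.42 and 7.97 on days 19, 22 and 26 and 12.26 and 12.58 in clones 1 and 2 (log2 difference -5.74 ± 0.61, 53.3-fold lower, limma adjusted p = 0.00072). Its neighbour and partner Dppa4 was lower, at -4.93 ± 0.45 and Dppa3, a maternal factor that protects methylation, at -4.72 ± 0.52. Tdgf1, a Nodal co-receptor, read 7.06, 9.36 and 10.63 on days 19, 22 and 26 and 13.16 and 13.11 in clones 1 and 2. Day 26 was more than 3 log2 units above day 19 and still below both clones (log2 difference -4.12 ± 0.92, 17.4-fold lower, limma adjusted p = 0.0109). Lefty2, an inhibitor of Nodal, was lower, at -4.00 ± 0.48 (limma adjusted p = 0.00105). The 3 members that did not pass were Rhox5, L1td1 and Epcam. L1td1, an RNA-binding protein of pluripotent cells, read 11.34, 11.86 and 11.52 on days 19, 22 and 26 and 11.89 and 12.48 in clones 1 and 2 (-0.61 ± 0.24, limma adjusted p = 0.079), and Epcam, an epithelial adhesion molecule, 11.48, 10.84 and 11.99 on days 19, 22 and 26 and 12.02 and 12.03 in clones 1 and 2 (-0.59 ± 0.32, limma adjusted p = 0.172). Rhox5, an X-linked homeobox gene, read 10.70, 11.92 and 11.93 on days 19, 22 and 26 and 11.95 and 12.59 in clones 1 and 2 (-0.76 ± 0.41, limma adjusted p = 0.18). All 3 genes lay below both clones in every culture, by less than 1 log2 unit on day 26. The list stood at median distances of -3.96, -2.92 and -2.48 on days 19, 22 and 26. With limma's plain moderated test 9 of the 16 passed as lower. Not passing in some alternatives were Tdgf1 with limma's plain moderated test, clone 1 left out and clone 2 left out.

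Chromatin regulators gave smaller differences. Of 8 genes of DNA methylation and its removal, 3 were lower (37.5%, 24.0% of all genes) and 0 higher (median difference -0.82). The 3 were Tet1, Tet2 and Gadd45a. Tet1, the dioxygenase that oxidises methylcytosine in pluripotent cells, read 6.85, 8.64 and 8.62 on days 19, 22 and 26 and 11.60 and 11.62 in clones 1 and 2. All cultures lay below the clones (log2 difference -3.57 ± 0.53, 11.9-fold lower, limma adjusted p = 0.00235). Tet2, of the same enzyme family, was lower, at -1.56 ± 0.18 (2.95-fold) and Gadd45a, a stress-induced cofactor of demethylation, at -1.72 ± 0.22 (3.29-fold). The de novo methyltransferases did not pass: Dnmt3b differed by -0.85 ± 0.56 (limma adjusted p = 0.255) with clones at 9.58 and 11.10, and Dnmt3a by -0.55 ± 0.48 (limma adjusted p = 0.392), with its 5 probe sets ranging from -1.75 to 1.74. Uhrf1, which brings the maintenance methyltransferase to DNA, differed by -0.78 ± 0.31 (limma adjusted p = 0.0815). Of 14 Polycomb genes, 9 were lower (64.3%), with a median of -1.12. The 2 higher ones, Bmi1 and Cbx8, made up 14.3%, below the 21.1% over all genes. With limma's plain moderated test 6 passed as lower. Cbx7, the chromodomain subunit typical of embryonic stem cells, read 6.59, 6.84 and 7.30 on days 19, 22 and 26 and 9.67 and 9.74 in clones 1 and 2 (log2 difference -2.79 ± 0.23, 6.93-fold lower, limma adjusted p = 0.000295). All cultures lay more than 2 log2 units below both clones. Mtf2, Jarid2 and Ezh2, an accessory subunit pair and the methyltransferase of Polycomb complex PRC2, were lower, at -2.17 ± 0.31, -1.68 ± 0.38 and -1.19 ± 0.26, and Pcgf6 of a variant PRC1 at -1.31 ± 0.20. Suz12, Ring1 and Ezh1 did not pass (-1.42, 0.36 and 0.21). Suz12 was close to the threshold (limma adjusted p = 0.0519) and passed as lower in 7 of the 14 alternatives. The number of higher Polycomb members was 1 with day 19 left out, 1 with day 26 left out, 0 with clone 1 left out and 0 with clone 2 left out. The call did not hold for Tet1, Jarid2 and Ezh2 with limma's plain moderated test, Ezh2 with clone 1 left out and Jarid2 with clone 2 left out.

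Germline genes, which in mouse are kept silent in somatic cells by promoter methylation, were at the floor in most cultures and well above it in the clones. Of 17 listed, 16 were on the array, 4 of them at the floor on all 5 arrays, and 12 were tested. Of these, 11 were lower and 1 was higher (Piwil2), but 8 were at the floor on all 10 culture arrays of the series, wt and ko, days 11 to 26, and could only come out lower. Their promoters are shown because their start sites are rich in CG, the dinucleotide that is methylated. The median CG count was 20 over 16 matched members, each read from its window with the most CG, against 7 over all single windows. These medians are unlike measures, since only the members were read from their highest window. The RefSeq windows (build GRCm38.p6) are 300 bases around the annotated start, written 5′ to 3′ along the gene: Hormad1 at chr3:95559427-95559726 on the plus strand, Mael at chr1:166238695-166238994 on the minus strand, Ddx4 at chr13:112652261-112652560 on the minus strand, and Dazl at chr17:50293571-50293870 on the minus strand. Capitals mark matches on either strand to CACGTG, the E-box bound by Myc-Max type dimers, and to TCCCGC, an E2F-type word. Hormad1 has 2 windows, and the window shown was chosen by its number of matches.

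Hormad1: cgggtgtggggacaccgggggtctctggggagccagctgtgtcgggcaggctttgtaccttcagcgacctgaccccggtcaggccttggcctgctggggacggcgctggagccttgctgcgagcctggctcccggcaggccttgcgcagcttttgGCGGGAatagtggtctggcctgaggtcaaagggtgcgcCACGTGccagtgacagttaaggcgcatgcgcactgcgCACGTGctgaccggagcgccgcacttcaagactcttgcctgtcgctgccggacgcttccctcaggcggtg
Mael: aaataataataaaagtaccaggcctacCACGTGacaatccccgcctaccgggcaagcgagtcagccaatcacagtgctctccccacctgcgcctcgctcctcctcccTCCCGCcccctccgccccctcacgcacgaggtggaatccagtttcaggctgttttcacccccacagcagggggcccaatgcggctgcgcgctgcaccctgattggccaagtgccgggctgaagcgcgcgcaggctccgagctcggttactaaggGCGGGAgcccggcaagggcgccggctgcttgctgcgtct
Ddx4: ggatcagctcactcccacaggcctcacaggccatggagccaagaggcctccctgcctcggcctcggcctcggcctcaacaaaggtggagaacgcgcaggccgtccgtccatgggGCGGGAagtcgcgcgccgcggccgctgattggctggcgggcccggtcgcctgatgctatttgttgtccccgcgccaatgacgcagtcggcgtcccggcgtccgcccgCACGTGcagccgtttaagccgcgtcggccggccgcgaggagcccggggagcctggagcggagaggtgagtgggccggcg
Dazl: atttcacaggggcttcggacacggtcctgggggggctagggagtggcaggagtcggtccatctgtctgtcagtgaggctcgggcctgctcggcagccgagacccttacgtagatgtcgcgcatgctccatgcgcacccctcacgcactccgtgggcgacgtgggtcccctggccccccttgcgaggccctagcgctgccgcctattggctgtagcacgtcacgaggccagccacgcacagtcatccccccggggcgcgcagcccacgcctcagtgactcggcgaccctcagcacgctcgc

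CACGTG was found in 9 of 16 matched germline members against 8.09% of 27025 genes, and TCCCGC in 8 of 16 against 22.1%. Both words are short and their matches describe letters only. The Dazl window held neither, and no window of Tdrd12, which is not printed, held either word. Dazl, an RNA-binding protein of germ cells, read 5.64, 5.64 and 5.64 on days 19, 22 and 26 and 11.84 and 10.99 in clones 1 and 2. All cultures were at the floor and both clones far above it (log2 difference -5.77 ± 0.25, at least 54.6-fold lower, limma adjusted p = 8.18e-05). Hormad1, a meiotic chromosome axis protein, read 8.64 and 9.14 in the clones and the floor in every culture (log2 difference -3.24 ± 0.18, at least 9.46-fold lower, limma adjusted p = 0.000132). Mael, of the piRNA pathway, likewise read 8.86 and 8.84 (at least 9.22-fold lower) and Ddx4, the Vasa helicase, 9.07 and 8.46 (at least 8.68-fold lower). Tdrd12, another piRNA factor, was the exception among the 5 with the largest differences, at 5.64, 6.56 and 6.96 on days 19, 22 and 26 and 9.35 and 9.63 in clones 1 and 2 (log2 difference -3.10 ± 0.37, 8.58-fold lower, limma adjusted p = 0.00106). It was above the floor on days 22 and 26. Piwil2, a Piwi protein that binds piRNAs, went the opposite way at 9.32, 10.02 and 9.56 on days 19, 22 and 26 and 7.20 and 6.80 in clones 1 and 2. All 3 cultures lay above both clones (log2 difference 2.63 ± 0.24, 6.2-fold higher, limma adjusted p = 0.000452). Stra8, the retinoic acid target that opens meiosis and 1 of the 15 genes with the largest falls, read 5.64, 6.16 and 6.46 on days 19, 22 and 26 and 11.62 and 11.31 in clones 1 and 2 (log2 difference -5.38 ± 0.26, 41.5-fold lower, limma adjusted p = 9.01e-05).

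Genes of the two-cell-like state, a rare fluctuating state of embryonic stem cells, were at the floor in all late cultures. Of 5 on the array 1 was at the floor on all 5 arrays, and the other 4 were tested only because a clone was above the floor. Of these, 2 passed. Usp17la, a deubiquitinase gene of a multigene family, read 10.48 and 9.10 in the clones and Tcstv1 9.41 and 8.07 (at least 17.7-fold and at least 8.56-fold lower). Clone 1 was higher than clone 2 for 3 of the 4 by at least 2-fold. The other 2, Zfp352 and Tcstv3, differed by -0.63 ± 0.34 (limma adjusted p = 0.178) and -0.10 ± 0.18 (limma adjusted p = 0.691). Near-identical family members may share probes, so single members are uncertain.

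Among the 15 genes with the largest falls that none of the lists above holds, several are X-linked or belong to oocyte and cancer-testis families. Mageb16, Trap1a, Fmr1nb, Pnma5 and Dusp9 are on the X chromosome and fell by 6.16, 5.78, 5.75, 5.28 and 4.97 on the log2 scale, against an X-linked median of -0.50. Trap1a read 5.64, 6.81 and 8.38 on days 19, 22 and 26 and 12.70 and 12.74 in clones 1 and 2. In the OSK ko clones it read 12.01 and 12.04. Dusp9, a phosphatase that restrains Erk signalling, read 5.87, 6.53 and 7.40 on days 19, 22 and 26 and 11.74 and 11.40 in clones 1 and 2, against 10.28 and 10.10 in the OSK ko clones. Ooep, an oocyte-expressed protein of an autosome, read 6.08, 7.52 and 8.84 on days 19, 22 and 26 and 13.62 and 13.15 in clones 1 and 2 (log2 difference -5.90 ± 0.71, 59.9-fold lower, limma adjusted p = 0.0011). It was highest on day 26 and remained under the clones. Aard, a small alanine- and arginine-rich protein, fell by 5.40 ± 0.18 (limma adjusted p = 4.48e-05).

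The fibroblast programme was strongly present in the late cultures. All 24 tested matrix and surface genes of fibroblasts passed as higher, with a median of 4.44, and the cultures lay above both clones for every one of them, as for 29.1% of all genes. Dcn, the small proteoglycan decorin, read 14.19, 13.68 and 14.03 on days 19, 22 and 26 and 5.64 and 5.76 in clones 1 and 2. It stood near the top of the array scale in the cultures and at or near the floor in the clones (log2 difference 8.26 ± 0.19, limma adjusted p = 1.94e-05, a 307-fold value that depends on the floor). Lum, the related lumican, read 13.97, 13.30 and 13.73 on days 19, 22 and 26 and 5.64 and 5.64 in clones 1 and 2 (log2 difference 8.02 ± 0.22, at least 259.6-fold higher, limma adjusted p = 1.94e-05), and Postn, periostin of loose connective tissue, 13.31, 12.72 and 13.04 on days 19, 22 and 26 and 5.64 and 5.64 in clones 1 and 2 (log2 difference 7.38 ± 0.20, at least 166-fold higher, limma adjusted p = 1.94e-05). Both clones were at the floor for both genes. Col3a1, a fibrillar collagen, read 14.55, 14.31 and 14.55 on days 19, 22 and 26 and 7.53 and 9.76 in clones 1 and 2. The clones differed from each other by far more than the cultures did (log2 difference 5.83 ± 0.58, 56.7-fold higher, limma adjusted p = 0.000534). Col6a1, of the beaded collagen VI, was 42.6-fold higher (limma adjusted p = 0.000201). The list median above the clones was 4.59, 4.11 and 4.60 on days 19, 22 and 26, and 20 of 24 members were highest on day 19 and none on day 22. The ko cultures of days 11 and 15 read 14.47 and 14.46 for Dcn.

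The 2 clones were unequal for this list. Clone 1 was below clone 2 by a median of -1.18 over the 24 genes, and by at least 2-fold for 14 of them. Cd44, the hyaluronan receptor, read 6.78 and 9.86 in clones 1 and 2, and S100a4, also called fibroblast-specific protein, 7.03 and 9.54. In the OSK ko clones Cd44 read 8.11 and 7.87 and Col3a1 8.45 and 8.43, between the OCK clones. With clone 1 left out 23 of the 24 passed, and with clone 2 left out 24. The part of other cells in the clone samples was not tested. With limma's plain moderated test 18 of the 24 passed, and among the named genes Cd44 and S100a4 lost the call.

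**Figure D3:**
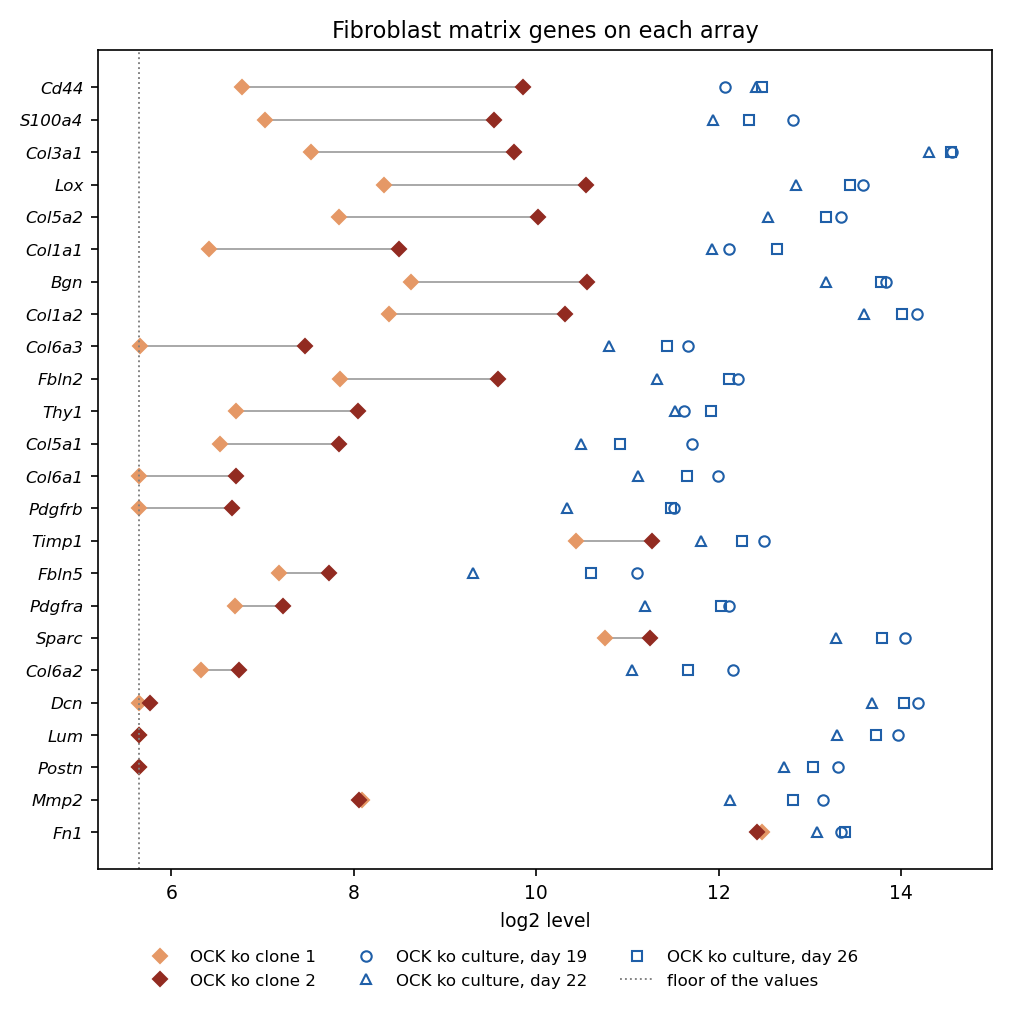
Log2 level (x axis) of 24 fibroblast matrix genes on each of the 5 arrays: clone 1 and clone 2 as diamonds joined by a line, cultures of days 19, 22 and 26 as open blue symbols, and the floor as a dotted line. All culture values lie to the right of both clones, and clone 1 lies at least 2-fold to the left of clone 2 for 14 genes.

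Transcription factors of mesenchyme followed: 15 of 18 were higher and 0 lower, with a median of 2.46. With limma's plain moderated test 11 passed as higher. Both clones were at the floor for 7 of the 18, which could not come out lower. Of the 6 above the floor on all 5 arrays, 4 passed as higher. Nfix, a nuclear factor I protein, read 11.29, 10.51 and 10.90 on days 19, 22 and 26 and 6.08 and 6.84 in clones 1 and 2 (log2 difference 4.43 ± 0.30, 21.6-fold higher, limma adjusted p = 0.000201). Tbx15, a T-box factor of skin and skeleton, read 10.53, 10.27 and 10.53 on days 19, 22 and 26 and 5.64 and 6.61 in clones 1 and 2 (log2 difference 4.32 ± 0.29, 19.9-fold higher, limma adjusted p = 0.000188). Prrx1, a homeobox factor of limb mesenchyme, and Ebf1 were higher by 3.64 ± 0.61 and 3.06 ± 0.24. Foxd1 had another time course, at 5.72 and 5.64 on days 11 and 15 and 8.54, 10.40 and 7.82 on days 19, 22 and 26. It was well above the floor in the late cultures only, among the ko arrays (log2 difference 3.28 ± 0.68, at least 9.71-fold higher, limma adjusted p = 0.0084). Foxc2, Foxf1 and Meox1 did not pass, at 0.38, -0.38 and 0.25. Under single alternatives the call ended for Prrx1 and Foxd1 with limma's plain moderated test.

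Among 18 genes of TGF-beta signalling, a pathway that maintains mesenchyme and slows reprogramming, 12 were higher (66.7%) and 1 lower (5.56%, Smad7). Their median difference was 1.44. The higher count was 7 with limma's plain moderated test. The receptor Tgfbr2 read 12.66, 11.86 and 12.48 on days 19, 22 and 26 and 6.91 and 8.59 in clones 1 and 2 (log2 difference 4.58 ± 0.49, 23.9-fold higher, limma adjusted p = 0.000717), and the co-receptor Tgfbr3 was higher by 3.59 ± 0.32. Both lay far above the clones on every late day. The ligand Tgfb2 was at least 8.37-fold higher, its matrix carrier Ltbp2 17-fold and the procollagen protease Bmp1 8.34-fold. Smad7, an inhibitor of the pathway, read 8.19, 8.09 and 8.74 on days 19, 22 and 26 and 10.04 and 10.16 in clones 1 and 2 and was lower (log2 difference -1.76 ± 0.22, 3.38-fold lower, limma adjusted p = 0.00128). Bmp4, Inhbb and Skil did not pass (0.95, 0.78 and 0.49).

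Epithelial genes were also well above the floor in the cultures. Of 22 tested, 11 were higher than in the clones, 1 was lower (Spint1), and the median was 0.64. The higher count was 5 with limma's plain moderated test, 7 with clone 1 left out and 7 with clone 2 left out, and the lower count 4 with day 26 left out. Krt19, a keratin of simple epithelia, read 11.15, 10.85 and 12.08 on days 19, 22 and 26 and 6.01 and 7.15 in clones 1 and 2 (log2 difference 4.78 ± 0.45, 27.5-fold higher, limma adjusted p = 0.000475). Krt8 was higher by 3.49 ± 0.49, the epithelial GTPase Rab25 by 2.76 ± 0.42 and the splicing factor Esrp1 by 2.04 ± 0.33. Cldn3, a tight junction claudin, read 9.38, 9.08 and 10.05 on days 19, 22 and 26 and 7.27 and 7.13 in clones 1 and 2 (log2 difference 2.31 ± 0.28, 4.95-fold higher, limma adjusted p = 0.00118). For these genes the cultures lay above both clones on all 3 days. St14, Cldn4 and Ocln did not pass (-0.88, 0.71 and 0.59). Spint1, a protease inhibitor of epithelia, was lower (-1.37 ± 0.37, limma adjusted p = 0.0221). All 22 members were highest on day 26 among the late cultures, against 3178 of all 13599 genes, and the list median above the clones was 0.39, 0.46 and 1.18 on days 19, 22 and 26. Not passing in some alternatives were Esrp1 with limma's plain moderated test.

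Hox genes, which keep the positional identity of somatic cells and are silent in pluripotent ones, were higher for 14 of 21 tested and lower for 0 (median 0.90). The higher count was 9 with limma's plain moderated test and 9 with day 26 left out. Both clones were at the floor for 9 of the 21, which could not come out lower. Of the 11 above the floor on all 5 arrays, 8 passed as higher. Hoxa9 read 9.95, 10.06 and 8.39 on days 19, 22 and 26 and 5.64 and 5.64 in clones 1 and 2 (log2 difference 3.82 ± 0.49, at least 14.2-fold higher, limma adjusted p = 0.00134), with both clones at the floor and day 26 lower than the other cultures. Hoxc8 read 10.02, 8.48 and 9.46 on days 19, 22 and 26 and 5.64 and 5.64 in clones 1 and 2 (log2 difference 3.67 ± 0.41, at least 12.8-fold higher, limma adjusted p = 0.000863), lowest on day 22. Hoxd8, Hoxa5 and Hoxa10 were higher by 2.86 ± 0.45, 2.69 ± 0.18 and 1.91 ± 0.25. Hoxd9, Hoxa2 and Hoxc5 did not pass (0.69, 0.61 and 0.58), and 16 of the 21 were highest on day 19. Contractile genes were higher for 6 of 10 (median 1.79), a count that was 1 with limma's plain moderated test and 2 with clone 1 left out. Myl9, a myosin light chain, read 10.54, 8.88 and 10.14 on days 19, 22 and 26 and 6.24 and 7.95 in clones 1 and 2 (log2 difference 2.76 ± 0.63, 6.77-fold higher, limma adjusted p = 0.0119), and Cald1, caldesmon, differed by 2.39 ± 0.21. Myl9 was lowest on day 22 in the cultures and in clone 1 among the clones. The call did not hold for Hoxd8 and Myl9 with limma's plain moderated test and Myl9 with clone 1 left out.

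Interferon-stimulated genes, which take part in antiviral defence and are held low in pluripotent cells, were higher for 13 of 19 tested and lower for 0, with a median of 1.94. The higher count was 6 with limma's plain moderated test and 8 with clone 1 left out. Both clones were at the floor for 8 of the 19, which could not come out lower. Of the 9 above the floor on all 5 arrays, 4 passed as higher. Promoters are shown for 4 of the 5 members with the largest differences. The fifth is Rtp4, with no entry in the RefSeq table. They serve to show matches to the core of the interferon-stimulated response element. Capitals mark that match on either strand: GAAA, any 2 bases, and GAAA again. The RefSeq windows (GRCm38.p6, 300 bases, along the gene) are Ifit1 at chr19:34640639-34640938 on the plus strand, Ifit3 at chr19:34583279-34583578 on the plus strand, Gbp2 at chr3:142620413-142620712 on the plus strand, and Ifih1 at chr2:62646206-62646505 on the minus strand.

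Ifit1: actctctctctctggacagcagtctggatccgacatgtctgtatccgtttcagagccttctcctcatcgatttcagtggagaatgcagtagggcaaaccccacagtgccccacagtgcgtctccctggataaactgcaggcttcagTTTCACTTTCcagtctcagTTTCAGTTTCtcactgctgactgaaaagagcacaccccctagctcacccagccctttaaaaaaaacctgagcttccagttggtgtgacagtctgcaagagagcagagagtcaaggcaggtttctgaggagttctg
Ifit3: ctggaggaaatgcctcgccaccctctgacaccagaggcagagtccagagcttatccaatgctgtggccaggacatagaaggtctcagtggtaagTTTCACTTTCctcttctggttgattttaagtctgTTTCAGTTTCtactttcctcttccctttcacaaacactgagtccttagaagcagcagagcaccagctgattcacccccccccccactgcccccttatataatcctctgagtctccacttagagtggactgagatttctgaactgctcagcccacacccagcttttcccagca
Gbp2: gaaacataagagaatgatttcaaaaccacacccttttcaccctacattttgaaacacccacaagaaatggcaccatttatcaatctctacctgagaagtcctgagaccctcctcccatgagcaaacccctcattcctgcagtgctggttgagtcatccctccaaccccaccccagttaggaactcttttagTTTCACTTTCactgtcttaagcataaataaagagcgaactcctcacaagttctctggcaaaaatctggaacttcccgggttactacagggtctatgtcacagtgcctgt
Ifih1: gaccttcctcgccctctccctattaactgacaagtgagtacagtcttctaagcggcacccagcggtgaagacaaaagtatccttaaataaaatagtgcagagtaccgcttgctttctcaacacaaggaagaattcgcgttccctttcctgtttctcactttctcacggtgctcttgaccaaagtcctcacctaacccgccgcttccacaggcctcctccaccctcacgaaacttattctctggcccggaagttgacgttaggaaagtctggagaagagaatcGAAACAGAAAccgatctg

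This word was found in 12 of 18 matched interferon genes against 3.99% of 27025 genes, and in 7 of the 11 matched members that passed and 4 of the 5 that were tested and did not. Ifit1, which binds foreign RNA ends, read 8.95, 9.97 and 7.46 on days 19, 22 and 26 and 5.64 and 5.64 in clones 1 and 2. All cultures were above the clones, day 22 highest, and both clones were at the floor (log2 difference 3.15 ± 0.64, at least 8.86-fold higher, limma adjusted p = 0.00805). Rtp4, a receptor transporter induced by interferon, read 10.13, 10.32 and 8.52 on days 19, 22 and 26 and 5.64 and 5.64 in clones 1 and 2 (log2 difference 4.01 ± 0.51, at least 16.1-fold higher, limma adjusted p = 0.00136), with day 26 again the lowest of the 3 cultures. Gbp2, a guanylate-binding protein, read 8.65, 8.93 and 8.13 on days 19, 22 and 26 and 5.64 and 5.64 in clones 1 and 2 (log2 difference 2.93 ± 0.24, at least 7.61-fold higher, limma adjusted p = 0.00032), and the RNA sensor Ifih1 8.79, 8.37 and 7.97 on days 19, 22 and 26 and 5.80 and 5.84 in clones 1 and 2 (log2 difference 2.56 ± 0.24, 5.88-fold higher, limma adjusted p = 0.00049). Ifit3 was higher by 2.77 ± 0.65 (at least 6.82-fold). Oas1a, Cxcl10 and Irf9 did not pass (-0.53, 0.52 and 0.48). These levels were well below those of the earlier ko cultures: Ifit1 read 12.80 and 12.30 on days 11 and 15, and Rtp4 12.64 and 12.33. Within the late window 15 of 19 members were highest on day 22 and none on day 26. Calls were lost for Ifit1 and Ifit3 with limma's plain moderated test and Ifit3 with clone 1 left out and clone 2 left out.

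Genes that load and present antigen on MHC class I were higher for 9 of 10 (median 1.65). With limma's plain moderated test 6 passed as higher. B2m, the light chain of class I molecules, read 13.22, 13.48 and 12.70 on days 19, 22 and 26 and 9.66 and 9.74 in clones 1 and 2 (log2 difference 3.44 ± 0.24, 10.8-fold higher, limma adjusted p = 0.000207). Cultures and clones were separated by about 3 log2 units with little spread within either. The immunoproteasome subunit Psmb8 was higher by 2.73 ± 0.27, the peptide trimmer Erap1 by 1.93 ± 0.18, the transporter Tap1 by 1.92 ± 0.16 and the heavy chain H2-D1 by 1.86 ± 0.33. H2-D1 has near-identical relatives whose RNA its probes may also read. Nlrc5, the activator of class I genes, differed by 0.28 ± 0.27 (limma adjusted p = 0.45) and did not pass. Markers of macrophages, which also present antigen, were at low levels: of 6, 5, 2 and 2 were above the floor on days 19, 22 and 26, with summed signals of 1143, 449 and 699 where all at the floor give 300, and Ptprc was at the floor on all 5 arrays. Their part in these results was not tested. Under single alternatives the call ended for H2-D1 with limma's plain moderated test.

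Genes typical of fat cells were also higher in the late cultures. Of 10 adipocyte genes, 8 were higher and 0 lower, with a median of 2.10, and 8 passed with any of the 3 cultures left out. Both clones were at the floor for 5 of the 10, which could not come out lower. Of the 4 above the floor on all 5 arrays, 3 passed as higher. Fabp4, the fatty acid carrier of adipocytes and macrophages, read 12.75, 12.63 and 12.82 on days 19, 22 and 26 and 5.64 and 5.64 in clones 1 and 2 (log2 difference 7.09 ± 0.18, at least 136-fold higher, limma adjusted p = 1.94e-05). Cultures were steady at a high level and clones at the floor. Adipoq, the hormone adiponectin, read 6.05 and 11.17 on days 11 and 15 and 9.96, 9.72 and 9.40 on the late days (log2 difference 4.05 ± 0.19, at least 16.6-fold higher, limma adjusted p = 9.01e-05). Car3, Lpl and Cd36, a carbonic anhydrase, a lipase and a lipid scavenger receptor of fat, were higher by 4.81 ± 0.54, 3.57 ± 0.35 and 2.35 ± 0.18. Cidec and Retn did not pass (0.29 and 0.24). Of the 15 genes with the largest rises, Hp, Lcn2, Lbp and Saa3 are acute-phase genes, named for that rank and not as members of a list. Hp, haptoglobin, read 13.16, 12.28 and 12.96 on days 19, 22 and 26 and 5.64 and 5.72 in clones 1 and 2 (log2 difference 7.12 ± 0.27, limma adjusted p = 6.73e-05, a 139-fold value that depends on the floor), and Saa3, a serum amyloid, 14.32, 14.10 and 14.32 on days 19, 22 and 26 and 8.45 and 8.10 in clones 1 and 2 (log2 difference 5.97 ± 0.17, 62.8-fold higher, limma adjusted p = 1.94e-05). Lcn2 and Lbp, which bind iron carriers and lipopolysaccharide, rose by 6.68 and 6.14, and the chemokines Cxcl5 and Cxcl12 by 6.74 and 5.97. In all of these the 3 cultures lay far above both clones. The rest of the 15 were Mmp3, a matrix protease (6.83), Thbs2 and Dpt, matrix proteins (6.24 and 5.88), the angiotensin receptor Agtr2 (5.86) and 2610528A11Rik (6.14).

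Imprinted genes were higher for 10 of 16 (62.5%) and lower for 0 (median 1.25). With limma's plain moderated test 8 passed as higher. Against the OSK ko clones the list median of the same cultures was 0.58. Igf2, the paternally expressed growth factor, read 13.52, 12.39 and 13.04 on days 19, 22 and 26 and 7.81 and 9.32 in clones 1 and 2 (log2 difference 4.42 ± 0.49, 21.4-fold higher, limma adjusted p = 0.000808). Meg3, a maternally expressed non-coding RNA whose silencing marks many iPSC lines, read 12.26, 11.46 and 11.77 on days 19, 22 and 26 and 9.33 and 8.18 in clones 1 and 2 (log2 difference 3.07 ± 0.38, 8.4-fold higher, limma adjusted p = 0.00115). Both clones were above the floor and below the cultures, clone 1 more than 1 log2 unit above clone 2. The OSK ko clones read 11.09 and 11.04 for Meg3 and the OSK wt clone 11.77, all above both OCK ko clones. Cdkn1c, a cell cycle inhibitor, and Peg3, a zinc finger protein, were higher by 3.31 ± 0.34 and 2.84 ± 0.19. Rian and Mirg, transcribed from the same region as Meg3, differed by 0.73 ± 0.39 (limma adjusted p = 0.176) and 0.66 ± 0.36 (limma adjusted p = 0.184) and did not pass, nor did Nnat (1.44). Dcn belongs to this list as well as to the matrix list.

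Genes of the cell division cycle were lower in the cultures for 16 of 18, with a median of -1.40, and none was higher. The count was 8 with limma's plain moderated test. Cdc6, which licenses replication origins, read 8.26, 9.40 and 8.53 on days 19, 22 and 26 and 10.79 and 10.96 in clones 1 and 2 (log2 difference -2.14 ± 0.33, 4.42-fold lower, limma adjusted p = 0.00267), and E2f1, the factor that drives entry into S phase, 7.65, 7.65 and 7.43 on days 19, 22 and 26 and 9.53 and 9.44 in clones 1 and 2 (log2 difference -1.91 ± 0.15, 3.76-fold lower, limma adjusted p = 0.000277). The cultures lay below both clones for both, with Cdc6 highest on day 22 and E2f1 flat. The mitotic kinases Bub1 and Aurka were lower, at -1.87 ± 0.27 and -1.68 ± 0.25 and the cyclin Ccnb2 at -1.57 ± 0.27. Kif11 and Mki67 did not pass (-1.01 and -0.30). Of the 18, 17 were highest on day 22 among the late cultures, and the list median was -1.75, -0.96 and -1.43 on days 19, 22 and 26. Cell cycle inhibitors and p53 targets went the other way for 7 of 13 (53.8%), with a median of 0.77. The 3 lower members (Pmaip1, Sesn1 and Sesn2) made up 23.1%, near the 24.0% over all genes. Cdkn2a, the locus of Ink4a and Arf and a known barrier to reprogramming, read 11.51, 11.04 and 11.31 on days 19, 22 and 26 and 6.90 and 6.64 in clones 1 and 2. The cultures stood more than 4 log2 units above both clones (log2 difference 4.52 ± 0.19, 23-fold higher, limma adjusted p = 8.04e-05). Its neighbour Cdkn2b was higher by 2.08 ± 0.32, Cdkn1a, which encodes p21, by 1.73 ± 0.16, the death receptor Fas by 3.76 ± 0.32 and Perp by 2.11 ± 0.15. Mdm2, Trp53inp1 and Bbc3 did not pass (-0.37, 0.17 and 0.06). Pmaip1, the BH3-only protein Noxa, was lower (-1.72 ± 0.28, limma adjusted p = 0.00322). Not passing in some alternatives were Ccnb2 with limma's plain moderated test.

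Among metabolic genes, 25.0% of the glycolysis list passed as higher (21.1% of all genes) and 33.3% of the amino acid list as lower (24.0% of all genes). Of 12 glycolysis genes 3 were higher (5 with a fit of all 18 arrays), Aldoc (1.34 ± 0.33, limma adjusted p = 0.0153), Ldha (1.26 ± 0.18, limma adjusted p = 0.00218) and Tpi1 (0.99 ± 0.16, limma adjusted p = 0.00307), and none lower (median 0.33). Pdk1, Hk1 and Hk2 did not pass (0.79, 0.70 and -0.50). Of 12 genes of serine, glycine and amino acid transport, 4 were lower (Slc7a3, Psph, Psat1 and Shmt1, at -1.47 ± 0.41, -1.26 ± 0.35, -1.20 ± 0.31 and -1.06 ± 0.30), a count that was 0 with limma's plain moderated test, 1 with day 19 left out, 0 with day 26 left out, 2 with clone 1 left out, 0 with clone 2 left out and 9 with all 4 Tcf3 ko clones as reference. Shmt1 did not pass with the mean of probe sets. Slc7a7, Mthfd1 and Slc7a5 did not pass (-0.96, -0.39 and -0.37). The exception was Slc38a5, a glutamine and glycine transporter of the X chromosome, at 11.64, 12.42 and 11.97 on days 19, 22 and 26 and 5.78 and 6.80 in clones 1 and 2. All cultures lay far above both clones (log2 difference 5.72 ± 0.35, 52.9-fold higher, limma adjusted p = 0.000156). On days 11 and 15 it read 5.64 and 8.70, in the late wt cultures 11.02, 12.26 and 11.24, and in the OSK ko clones 5.77 and 5.64. It was high in late OCK cultures of either genotype and within about 1 log2 unit of the floor on day 11 and in the 4 ko clones. The call did not hold for Aldoc with limma's plain moderated test, day 26 left out, clone 2 left out and all 4 Tcf3 ko clones as reference.

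Targets of Wnt signalling, the pathway that acts through Tcf3, were split: 3 of 11 were higher, 3 lower and the median was -0.04. These shares, 27.3% each way, were near the 21.1% higher and 24.0% lower over all genes. The higher count was 1 with limma's plain moderated test. Lgr5, an R-spondin receptor and stem cell marker, read 11.34, 9.79 and 11.09 on days 19, 22 and 26 and 5.64 and 5.64 in clones 1 and 2 (log2 difference 5.09 ± 0.44, at least 34.1-fold higher, limma adjusted p = 0.000356), with both clones at the floor. Ccnd1, cyclin D1, was higher by 1.73 ± 0.31, and Cd44 was the third. Notum, a secreted Wnt deacylase, went the other way at 5.71, 5.64 and 5.65 on days 19, 22 and 26 and 8.22 and 9.11 in clones 1 and 2: all cultures were at or next to the floor (log2 difference -2.99 ± 0.26, 7.97-fold lower, limma adjusted p = 0.000362). Cdx1 was lower, at -1.58 ± 0.22 and Axin2, the feedback inhibitor, at -0.82 ± 0.16 (limma adjusted p = 0.00747). Lef1, Sp5 and Znrf3 did not pass (-0.11, -0.04 and -0.04). Of 13 Tcf/Lef factors and their partners 4 were higher (30.8%) and 2 lower (15.4%), Tcf7l1 and the corepressor Tle4 (-0.96 ± 0.26). The counts were 2 with limma's plain moderated test for higher members and 1 with clone 2 left out for lower ones. Tcf7l2, another Tcf factor, read 8.14, 8.42 and 8.45 on days 19, 22 and 26 and 7.44 and 6.69 in clones 1 and 2 and was higher (log2 difference 1.27 ± 0.25, 2.42-fold higher, limma adjusted p = 0.00641), opposite to Tcf7l1. Tle2 and Gsk3b were higher by 1.53 ± 0.29 and 0.80 ± 0.17. Tle1, Ctbp2 and Apc did not pass (-0.49, -0.46 and -0.42). In LIF and Stat3 signalling, 4 of 9 genes were higher (44.4%) and 2 lower (22.2%). The count of higher genes was 2 with clone 2 left out. The receptors Osmr and Il6st were higher by 5.06 ± 0.53 and 1.80 ± 0.41 and Stat3 by 1.11 ± 0.14, while the Stat3 target kinases Pim1 and Pim3 were lower, at -2.42 ± 0.32 and -1.75 ± 0.22. Pim1 read 8.64, 8.69 and 8.88 on days 19, 22 and 26 and 11.72 and 10.60 in clones 1 and 2, flat over the late days and below both clones (log2 difference -2.42 ± 0.32, 5.36-fold lower, limma adjusted p = 0.00145). Jak1, Lifr and Socs3 did not pass (0.51, 0.20 and -0.12). Calls were lost for Ccnd1, Tle4, Tcf7l2, Tle2 and Il6st with limma's plain moderated test, Il6st with clone 1 left out and Tle4, Gsk3b and Il6st with clone 2 left out.

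Genes of several other lineages differed between the late days. Of 13 neural progenitor and epiblast genes 5 were higher (38.5%, 21.1% of all genes) and 4 lower (30.8%, 24.0% of all genes). The lower ones were Otx2, Sox3, Olig2 and Msi1. The counts were 2 with limma's plain moderated test for higher genes and 1 with limma's plain moderated test, 1 with clone 1 left out and 2 with clone 2 left out for lower ones. Sox1, an early neural plate factor, read 8.72, 10.23 and 9.56 on days 19, 22 and 26 and 5.64 and 6.17 in clones 1 and 2 (log2 difference 3.60 ± 0.42, 12.1-fold higher, limma adjusted p = 0.00102). It was at the floor on days 11 and 15 and above both clones in all late cultures. Pax6, Zic1 and Zic2, further neural factors, were higher by 2.08 ± 0.41, 1.94 ± 0.31 and 1.90 ± 0.33. Otx2, of the epiblast and forebrain, read 5.64, 5.64 and 7.40 on days 19, 22 and 26 and 8.95 and 8.17 in clones 1 and 2 and was lower (log2 difference -2.33 ± 0.56, 5.04-fold lower, limma adjusted p = 0.0148). Fabp7, of radial glia, read 5.64, 10.16 and 7.78 on days 19, 22 and 26 and 5.64 and 5.64 in clones 1 and 2 (2.22 ± 1.14, limma adjusted p = 0.159). It was among the 8 genes with the largest range over the late days and did not pass. Neuronal genes peaked on day 22, where 13 of 14 were highest, against 4946 of all 13599 genes. The list median was -0.35, 1.19 and -0.35 on days 19, 22 and 26. Of the 14 genes, 3 were higher (21.4%) and 1 lower (7.14%), where all genes gave 21.1% and 24.0%. Without day 22, 4 were lower, and with the plain moderated test 1 was higher. Map2, a dendritic microtubule protein, read 8.99, 9.34 and 9.11 on days 19, 22 and 26 and 7.71 and 7.92 in clones 1 and 2 (log2 difference 1.33 ± 0.17, 2.52-fold higher, limma adjusted p = 0.00128). Gap43 and Syt1, of growth cones and synaptic vesicles, were higher by 2.07 ± 0.38 and 0.99 ± 0.31, and Nefl, a neurofilament, was lower, at -2.03 ± 0.64. Tubb3, a neuronal tubulin, read 7.21, 8.92 and 7.45 on days 19, 22 and 26 and 8.69 and 9.94 in clones 1 and 2 (-1.45 ± 0.57, limma adjusted p = 0.0802), and Stmn3 5.64, 7.45 and 5.72 on days 19, 22 and 26 and 7.02 and 8.33 in clones 1 and 2 (-1.41 ± 0.62, limma adjusted p = 0.109). Day 22 alone reached the range of the clones for both. Of 6 neuron markers, 4, 6 and 4 were above the floor on days 19, 22 and 26 and 5 and 4 in clones 1 and 2. Their summed linear signals were 4367, 6554 and 3038 on these days and 5106 and 7169 in the clones, so day 22 lay between the clones. Under single alternatives the call ended for Pax6, Zic1, Zic2, Otx2, Gap43, Syt1 and Nefl with limma's plain moderated test, Syt1 with day 19 left out and quantile normalization, Nefl with day 26 left out, Otx2, Syt1 and Nefl with clone 1 left out, Syt1 and Nefl with clone 2 left out, the mean of probe sets and a fit of all 18 arrays and Otx2 and Syt1 with array weights.

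Genes of trophoblast giant and spongiotrophoblast cells stood out on day 26. Of 12 placental prolactin genes on the array, 6 were at the floor on all 5 arrays. The other 6 were at the floor in both clones and highest on day 26, and they were tested only because a culture was above the floor. None passed the test of the 3 cultures against the clones. With array weights 4 passed as higher, among them Prl2a1, Prl7d1 and Prl7b1. Those weights were 0.58, 0.43 and 4.33 for days 19, 22 and 26, so day 26 dominated that setting. Prl2a1 also passed with a fit of all 18 arrays and with day 19 left out. Prl2a1 read 5.64, 7.71 and 10.17 on days 19, 22 and 26 and 5.64 and 5.64 in clones 1 and 2 (2.20 ± 1.14, limma adjusted p = 0.163), Prl7d1 5.64, 5.64 and 9.22 on days 19, 22 and 26 and 5.64 and 5.64 in clones 1 and 2 (1.19 ± 1.04, limma adjusted p = 0.392) and Prl7b1 5.64, 5.64 and 8.89 on days 19, 22 and 26 and 5.64 and 5.64 in clones 1 and 2 (1.08 ± 0.95, limma adjusted p = 0.393). Both clones and the day 19 culture were at the floor for all 3. Of 12 other trophoblast genes 1 was higher, Elf5 (1.55 ± 0.40, limma adjusted p = 0.0197). Lower were 2, Tfap2c (-3.14 ± 0.47, limma adjusted p = 0.00234) and Hand1 (-0.54 ± 0.17, limma adjusted p = 0.0359). These shares, 8.33% and 16.7%, were below the 21.1% and 24.0% over all genes. Ctsj, a placental cathepsin, read 5.64, 6.88 and 9.0 on days 19, 22 and 26 and 5.64 and 5.64 in clones 1 and 2 and Tpbpa, of spongiotrophoblast, 5.64, 5.92 and 8.72 on days 19, 22 and 26 and 5.64 and 5.64 in clones 1 and 2, again with day 26 highest and the clones at the floor. The late wt cultures read 5.64, 6.34 and 7.33 for Prl2a1, also highest on day 26, and were at the floor for Prl7d1, Prl7b1, Ctsj and Tpbpa on all 3 days. The summed linear signal of the trophoblast markers was 277, 345 and 2075 on days 19, 22 and 26 and 292 and 316 in the clones. Each day is 1 array, so these day values have no replicate. Not passing in some alternatives were Elf5 and Hand1 with limma's plain moderated test and clone 2 left out, Hand1 with day 22 left out, day 26 left out and the mean of probe sets and Elf5 with clone 1 left out.

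**Figure D4:**
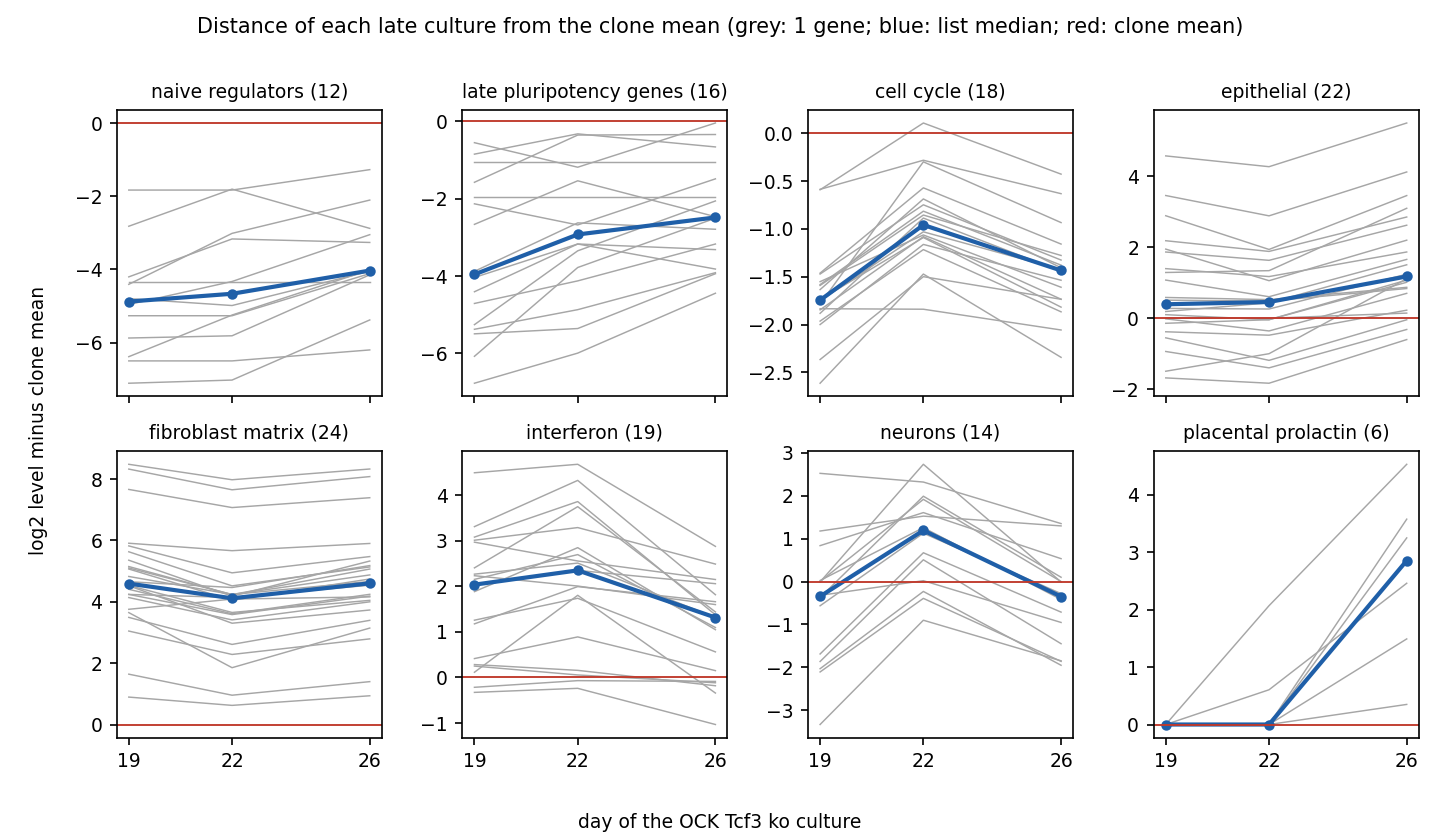
Log2 level minus the mean of the 2 OCK ko clones (y axis; scales differ between panels) for the ko cultures of days 19, 22 and 26 (x axis): 1 grey line per tested gene, the list median in blue, the clone mean in red. The neuron median peaks on day 22 at 1.19, the median of the 6 tested placental prolactin genes reaches 2.85 on day 26, and the naive regulators stay at least 4.03 below the clones in the median.

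The remaining lineage lists passed at shares on both sides of the 21.1% higher and 24.0% lower over all genes. Keratinocyte genes were higher for 7 of 17 (41.2%), a count that was 4 with limma's plain moderated test, 3 with clone 1 left out and 3 with clone 2 left out. Sprr1a, a cornified envelope protein, read 11.29, 9.63 and 10.82 on days 19, 22 and 26 and 5.64 and 5.64 in clones 1 and 2 (log2 difference 4.93 ± 0.45, at least 30.6-fold higher, limma adjusted p = 0.000424), and Krt6a, of activated keratinocytes, 11.25, 9.16 and 11.09 on days 19, 22 and 26 and 5.64 and 5.73 in clones 1 and 2 (log2 difference 4.81 ± 0.60, 28.1-fold higher, limma adjusted p = 0.00121). Both were lowest on day 22 among the cultures and at or near the floor in the clones. Both clones were at the floor for 9 of the 17 keratinocyte genes, which could not come out lower. Of the 4 above the floor on all 5 arrays, 0 passed. Endothelial genes were higher for 4 of 8 (2 with limma's plain moderated test) and lower for 1. The lower gene was Pecam1, which pluripotent cells also express, at 5.64, 6.14 and 5.64 on days 19, 22 and 26 and 9.0 and 8.60 in clones 1 and 2 (log2 difference -2.99 ± 0.22, 7.95-fold lower, limma adjusted p = 0.000231). The endothelial markers Tie1 and Emcn were at the floor on all 5 arrays. Macrophage genes were higher for 3 of 11, or 27.3% (Cd14, Lyz2 and Csf1r, by 2.88 ± 0.45, 2.71 ± 0.55 and 1.45 ± 0.35; 0 with limma's plain moderated test). Primitive endoderm genes were higher for 5 of 13 (38.5%; 3 with limma's plain moderated test), among them Srgn, Sparc, Dab2 and Lamb1, which fibroblasts or blood cells express too. Lama1, a basement membrane laminin, was lower (log2 difference -2.77 ± 0.41, at least 6.83-fold lower, limma adjusted p = 0.00225), and the defining factors Gata4 and Sox7 did not pass (-0.29 and -0.34). Primitive streak genes were lower for 3 of 7, or 42.9% (Eomes, Mesp2 and Mixl1, at -0.90 ± 0.25, -0.78 ± 0.17 and -0.58 ± 0.18; 0 with clone 1 left out, 5 with a fit of all 18 arrays). Skeletal muscle genes were lower for 2 of 5 (40.0%). Mylpf, a fast muscle light chain, read 7.21, 7.62 and 8.66 on days 19, 22 and 26 and 11.31 and 12.04 in clones 1 and 2 (log2 difference -3.84 ± 0.44, 14.3-fold lower, limma adjusted p = 0.000907) and was highest on day 26, while Myod1 and Myog were at the floor on all 5 arrays. Myh3 was lower, at -0.60 ± 0.18. The call did not hold for Cd14, Lyz2, Csf1r, Dab2 and Eomes with limma's plain moderated test, Mixl1 and Myh3 with day 19 left out and day 26 left out, Csf1r, Eomes, Mesp2, Mixl1 and Myh3 with clone 1 left out, Csf1r, Eomes, Mixl1 and Myh3 with clone 2 left out and Srgn with all 4 Tcf3 ko clones as reference.

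**Figure D5:**
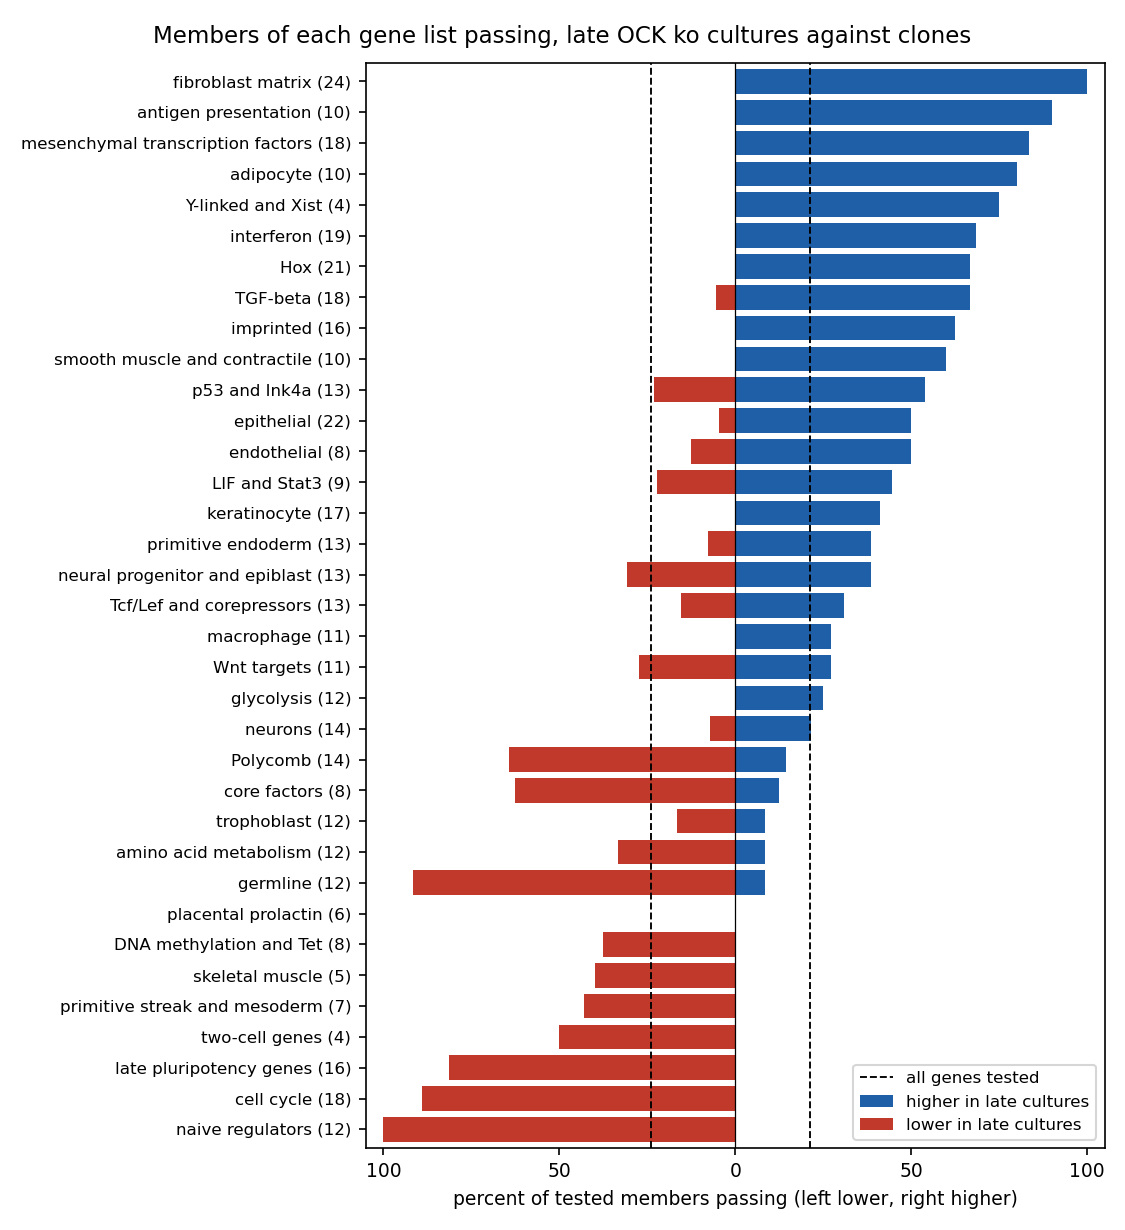
Percent of the tested members of each of 35 gene lists (numbers tested in parentheses) that passed as higher (right, blue) or lower (left, red) in the late cultures; dashed lines mark 21.1% higher and 24.0% lower over all 13599 genes. Fibroblast matrix genes were all higher, naive regulators all lower, and none of the 6 tested placental prolactin genes passed.

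Within the late window the 3 cultures were not alike. Between days 19 and 22, 295 genes were at least 2-fold higher on day 22 and 502 lower, and between days 22 and 26, 286 were higher on day 26 and 141 lower. The 8 genes with the largest range over the late days were Prl2a1, Fabp7, S100g, Sox2, 4930550L24Rik, Upp1, S100a9 and Prl7d1. S100g, a calcium-binding protein, was above the floor on day 19 only (10.13, 5.64 and 5.64 on days 19, 22 and 26 and 5.64 and 5.64 in clones 1 and 2), where the late wt cultures read 10.48, 5.64 and 8.83, and S100a9, of inflammation and skin, was highest there (9.42, 5.74 and 7.34 on days 19, 22 and 26 and 5.64 and 5.64 in clones 1 and 2). 4930550L24Rik, an X-linked gene, was highest on day 22 (5.64, 9.46 and 6.24 on days 19, 22 and 26 and 7.38 and 6.77 in clones 1 and 2). Upp1, uridine phosphorylase, read 6.23, 8.43 and 9.96 on days 19, 22 and 26 and 12.94 and 12.00 in clones 1 and 2 (log2 difference -4.26 ± 0.98, 19.2-fold lower, limma adjusted p = 0.0124). Both Upp1 and Sox2 were highest on day 26. Of these 8 only Sox2 and Upp1 passed against the clones. Calls were lost for Upp1 with limma's plain moderated test and clone 1 left out.

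Clone 2 was at least 2-fold above clone 1 for 230 genes and below it for 161. The 8 genes with the largest difference, all higher in clone 2, were Id3, Mycn, Cd44, Enox1, Lgals3, Grem1, Emp1 and S100a4. Id3, an inhibitor of differentiation factors, read 6.77 and 9.88 in clones 1 and 2 against 10.71, 9.29 and 10.68 in the cultures, a difference that did not pass (1.90 ± 0.89, limma adjusted p = 0.127). Lgals3, Grem1 and Emp1, a galectin, a BMP antagonist and a membrane protein, read 8.79 and 11.54, 5.64 and 8.39 and 7.72 and 10.44. Clone 2 thus lay nearer to the cultures for these genes. Enox1 was the exception, at 5.75 and 8.66 in the clones and 5.64, 5.64 and 5.81 in the cultures. The OSK ko clones read 8.98 and 8.99, near clone 2. Of the pluripotency genes, Lin28a was lower in clone 1 (8.73 and 10.83), and Dppa3 was higher (11.85 and 10.52).

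The late ko cultures were also set against the late wt cultures of the same days, with day as a block. That comparison shares the 3 ko cultures with the one above. No gene of 13118 passed (limma, smallest adjusted p = 0.354), and 876 had an unadjusted p under 0.05 (6.68%). Without the block there were 0 passing and 231 unadjusted, and with limma's plain moderated test 0 and 956. The values that follow are side by side, with no test, and both sets of differences from the clones share those clones. Nanog read 6.31, 8.43 and 9.23 in the wt cultures, with a ko minus wt difference of 0.79 and the ko culture above the wt culture on all 3 days. The same difference was 1.34 for Tfcp2l1 and 1.26 for Ooep, and -1.12 for Adipoq and -1.14 for Ifit1. The 12 naive regulators had a median of -4.73 for wt cultures minus clones and -4.48 for ko cultures minus clones, and the 24 fibroblast matrix genes 4.64 and 4.44. The wt cultures of days 19, 22 and 26 had r = 0.761, 0.804 and 0.781 with the OCK ko clones across genes, each below the ko culture of the same day.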

How the data were processed

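RNA of each sample was hybridised to a 1-colour Affymetrix mouse expression array, and the log2 values used here are those the authors deposited, made with RMA per the submitters' processing notes, which give no version. Values stop at 5.64, the log2 of 50, which 44.9% to 46.6% of 40508 probe sets held on each array, and no source names that step. Arrays have no count depth, so precision is limited by the number of arrays. Array medians ran from 5.85 to 5.94, and no further scaling was applied.

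Of the probe sets, 31076 had 1 gene symbol, 636 several and 8796 none. Each of 17903 genes was read from its brightest probe set, by the mean of all 18 arrays. The late cultures and the OCK ko clones were fitted in limma 3.58.1 (R 4.3.3) on these 5 arrays alone. The prior spread was estimated without genes that touched the floor in the fit, a gene with a value at the floor received at least that spread, and genes at the floor on all 5 arrays were not tested. Late ko and late wt cultures were fitted with sampling day as a block, since the labels give both genotypes the same days. P-values were adjusted by Benjamini-Hochberg over all genes tested. Tables and figures were made in Python 3.11.15 with pandas 2.3.3 and matplotlib 3.10.9.

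The fit was tested on simulated data (10 simulations of 17903 genes, 200 of them changed). For late cultures against clones it found 28.8% of changes of 1 log2 unit and 91.4% of changes of 2, and 4.45% of calls were false. For late ko against late wt cultures the shares were 72.3%, 96.8% and 4.14%. The changed genes lay well above the floor, and both groups were given the same spread. In the data 45.1% of genes passed for cultures against clones, far above the simulated share, so these rates need not carry over.

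The samples, the 35 gene lists and the tests were chosen with earlier results of these data known. Named genes were the 15 passing genes with the largest difference in each direction and no overlap, the 8 with the largest range over the late days, the 8 with the largest difference between the clones, up to 5 passing and 3 not passing in each list, and Pou5f1, Myc, Klf4, Sox2 and Tcf7l1. Utf1, Bmi1, Cbx8, Piwil2, Smad7, Spint1, Pmaip1, Sesn1, Sesn2, Axin2, Sox3, Olig2 and Msi1 fall outside this rule and were chosen after their values were seen. Lists are described by counts and medians only. The alternatives were limma's plain moderated test, a prior with trend, quantile normalization, median centring, genes above the floor on every array, the mean of probe sets, array weights, a fit of 18 arrays, all 4 Tcf3 ko clones as reference, no day block, and each array left out. Promoter windows of 300 bases came from RefSeq tables of build GRCm38.p6, by gene symbol.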

Additional observations from a re-analysis of the deposited data

How the results depend on the processing

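Of the 173 named genes that passed, 115 passed in all 14 alternatives run for single genes, and 58 lost the call in at least 1, most often with limma's plain moderated test (53), with clone 1 left out (24) or with clone 2 left out (23). Of the 95 named genes that did not pass, 61 passed in at least 1 alternative with the direction unchanged. This was most often with array weights (35), all 4 Tcf3 ko clones as reference (32) or all 18 arrays in the fit (24). Array weights were 0.58, 0.43 and 4.33 for days 19, 22 and 26. The count of 6127 passing genes ranged from 4021 to 6433 over the settings that left out 1 array: 5342 without day 19, 6433 without day 22, 4574 without day 26, 4021 without clone 1 and 4184 without clone 2. It was 4112 with limma's plain moderated test and 7968 with all 18 arrays in the fit. Adjusting the p-values of the main fit over autosomal genes only gave 5818, an alternative chosen after seeing the data. The sign of the difference changed in at least 1 alternative for 22 named genes. Of these, Mycn alone had passed, and it was -0.44 with the mean of its probe sets. The other 21 had not passed and had differences of at most 0.95 in size, among them 4930550L24Rik, which passed at -1.13 without day 22, and Klf4, which was -0.45 with the mean of its probe sets. No paired analysis was possible for cultures against clones because the cultures carry days and the clones carry clone numbers. For late ko against late wt cultures, 0 genes passed in limma with the day block (876 at an unadjusted p under 0.05), 0 without the replicate block (231) and 0 with each day left out. Removing 1 clone leaves 1, assumed to vary like the cultures. With 3 cultures and 2 clones, changes of 1 log2 unit were found in 28.8% of simulated cases. Only 200 of 17903 genes were changed there, so that share need not hold here. Levels at the floor have no order.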

Other observations

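Some further members of the keratinocyte, endothelial and contractile lists were higher in the late cultures. Of the keratinocyte genes, Dsc3, a desmosomal cadherin, read 8.62, 8.21 and 8.97 on days 19, 22 and 26 and 5.64 and 5.64 in clones 1 and 2 (log2 difference 2.95 ± 0.23, at least 7.75-fold higher, limma adjusted p = 0.000282), and Krt1, a keratin of the upper epidermis, 8.85, 6.97 and 7.41 on days 19, 22 and 26 and 5.64 and 5.64 in clones 1 and 2 (log2 difference 2.10 ± 0.51, at least 4.28-fold higher, limma adjusted p = 0.0154). Sprr2d, of the cornified envelope, was higher by 2.15 ± 0.62 and highest on day 26, whereas Krt1 was highest on day 19. The cultures lay above both clones for all 3 genes. Under single alternatives the call ended for Krt1 and Sprr2d with limma's plain moderated test, clone 1 left out and clone 2 left out. The terminal differentiation genes Lor, Sprr1b and Lce1b did not pass (1.20, 1.03 and 0.55), and all 3 were highest on day 19. Among endothelial genes, the receptor component Ramp2 read 8.16, 7.60 and 7.89 on days 19, 22 and 26 and 5.64 and 5.90 in clones 1 and 2 and the claudin Cldn5 8.17, 8.09 and 7.96 on days 19, 22 and 26 and 6.21 and 5.76 in clones 1 and 2. Both were steady over the late days and near the floor in the clones, at 2.11 ± 0.20 and 2.09 ± 0.18 (limma adjusted p = 0.000501 and 0.000366). Cdh5, the cadherin that defines endothelium, was above the floor on day 26 alone (5.64, 5.64 and 6.47 on days 19, 22 and 26 and 5.64 and 5.64 in clones 1 and 2). Among contractile genes, Tagln, an actin-binding protein of smooth muscle and myofibroblasts, read 11.82, 10.29 and 11.41 on days 19, 22 and 26 and 8.13 and 9.94 in clones 1 and 2 (log2 difference 2.14 ± 0.62, 4.41-fold higher, limma adjusted p = 0.0288). The lowest culture and the highest clone were close. Not passing in some alternatives were Tagln with limma's plain moderated test, day 19 left out, day 26 left out and clone 1 left out.

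Across all genes, 409 that passed as higher were at the floor in both clones, and 234 that passed as lower were at the floor in all 3 cultures. Xist, the RNA of the inactive X chromosome, read 6.07, 5.86 and 6.90 on days 19, 22 and 26 and 5.64 and 5.64 in clones 1 and 2 (0.63 ± 0.31, limma adjusted p = 0.138). All 5 values were low, with the cultures above the clones.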
